A study of Mus musculus with 13 samples.

Results

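The genes examined here encode 30 transcription factors that hold B cells in their identity or carry them towards the plasma cell. STAT3 binding near them was read from CUT&RUN peak lists, an assay in which an antibody bound to its target directs a nuclease to cut out the DNA beneath it. For each factor, all peaks overlapping its RefSeq gene span with 50 kb added on each side were taken. Peaks sharing at least 1 bp, whichever library they came from, were joined into a region. The 30 windows covered 7.18 Mb, did not overlap each other, and held 97 peaks in 70 of the 11227 regions of the whole series. The number of coding genes in the RefSeq table was 21887, and all 30 factors were matched in it.

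B cells from mouse spleen had first spent 96 h in culture, with IL-4 at 12.5 ng/mL and anti-CD40 at 1 µg/mL, and were then separated by sorting into IgM+ and IgG1+ cells. Sorted cells (400000 per sample) then received, for 1 h, anti-CD40 with IL-4 (12.5 ng/mL) or anti-CD40 with IL-21 (10 ng/mL). Every group shared the earlier culture with IL-4, and no IL-4 is recorded for the IL-21 arm, so the presence of IL-21 and the removal of IL-4 cannot be told apart. Wild-type (WT) cells gave 2 libraries for each of the 4 combinations of cytokine and isotype, and STAT3 KO cells gave 1 library for each. The sources used here give neither the KO allele, any Cre driver, the strain nor the age of the animals. They do not tie replicates to separate animals either, so p-values measure the spread between libraries alone, and that spread may be technical. A peak list holds no expression values, so neither the cell type nor the loss of STAT3 was checked.

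IL-21, a product of T follicular helper cells, acts through JAK kinases and STAT3, and the main STAT downstream of IL-4 is STAT6. In B cells IL-21 together with CD40 is known to favour plasma cell formation, in which Prdm1 and Xbp1 are switched on and Pax5, Bach2 and other identity factors are switched off. STAT dimers bind a palindrome written TTCNNNGAA.

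Of the 9 regions held by at least 2 of the 4 IL-21 lists of WT cells, 4 lay within 1000 bp of a listed start of their factor. The following RefSeq promoters (GRCm38.p6, the assembly behind mm10, 250 bases before to 50 bases after a listed start) are those at Etv6, where each of the 4 WT libraries with IL-21 showed a peak, at Pou2af1 and Runx1, which had the next highest folds, and at Elf1, whose site was shared with KO cells. Capitals mark TTCNNNGAA, searched on both strands (the motif is its own reverse complement).
Etv6, chr6:134035450-134035749, plus strand: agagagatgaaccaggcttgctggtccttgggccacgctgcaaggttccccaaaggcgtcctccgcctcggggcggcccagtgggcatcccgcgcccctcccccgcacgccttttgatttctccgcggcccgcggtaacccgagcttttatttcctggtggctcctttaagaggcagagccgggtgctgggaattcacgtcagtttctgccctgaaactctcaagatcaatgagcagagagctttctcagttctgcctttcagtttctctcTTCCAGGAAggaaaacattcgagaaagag
Pou2af1, chr9:51213440-51213739, plus strand: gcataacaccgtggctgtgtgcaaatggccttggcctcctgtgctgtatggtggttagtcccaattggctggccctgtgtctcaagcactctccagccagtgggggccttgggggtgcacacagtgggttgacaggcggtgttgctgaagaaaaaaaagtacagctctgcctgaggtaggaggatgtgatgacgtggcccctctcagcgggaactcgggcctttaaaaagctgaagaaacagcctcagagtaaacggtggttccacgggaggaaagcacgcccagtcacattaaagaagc
Runx1, downstream start, chr16:92697280-92697579, minus strand: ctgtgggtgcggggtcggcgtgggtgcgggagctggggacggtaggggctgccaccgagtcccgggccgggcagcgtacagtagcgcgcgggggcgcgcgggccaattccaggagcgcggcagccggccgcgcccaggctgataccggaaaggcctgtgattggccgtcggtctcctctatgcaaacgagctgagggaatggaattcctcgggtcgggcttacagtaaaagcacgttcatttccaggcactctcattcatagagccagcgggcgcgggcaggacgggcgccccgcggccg
Elf1, chr14:79480944-79481243, plus strand: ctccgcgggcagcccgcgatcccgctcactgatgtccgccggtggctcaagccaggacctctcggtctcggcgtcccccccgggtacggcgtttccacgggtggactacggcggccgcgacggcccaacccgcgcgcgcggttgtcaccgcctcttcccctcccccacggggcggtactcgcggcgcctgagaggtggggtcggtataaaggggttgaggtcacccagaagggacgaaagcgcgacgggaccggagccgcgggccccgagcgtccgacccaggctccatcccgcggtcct

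Of these 4, the Etv6 promoter alone held the motif, once, as TTCCAGGAA at bases 272 to 280 (chromosome 6, 134035721 to 134035729), which starts 21 bp after the listed start. The motif lay 174 to 282 bp from the 4 summits, and inside the peak of the second WT IgM library with IL-21 but beyond the ends of the other 3 peaks. TTCNNNGAA was found in 8.30% of all 32851 listed promoters and in 38.2% of the 55 promoters overlapped by a region present in all 4 IL-21 lists of WT cells and absent from all 4 IL-4 lists. It was found in 6.48% of the 1003 promoters overlapped by a region of a single library. The same palindrome with a spacer of 4 bases, which STAT6 prefers, was in none of the 4 promoters printed and in 6.95% of all promoters. Promoter entries were matched for 27 of the 30 factors (all but Ets1, Ikzf3 and Spi1). Of these, 8 held TTCNNNGAA in at least 1 promoter: Bach2, Bcl11a, Etv6, Ikzf1, Mef2c, Pou2f1, Zbtb20 and Zeb2. Many factors have several promoters, so this count cannot be set against the share of all promoters. By promoter, 9 of the 46 entries held the motif (19.6%), with overlapping Zeb2 entries sharing the same copy. Of those promoters with the motif, only that of Etv6 overlapped a region in any library. A match is a description of the letters, not of a bound site.

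**Figure D1:**
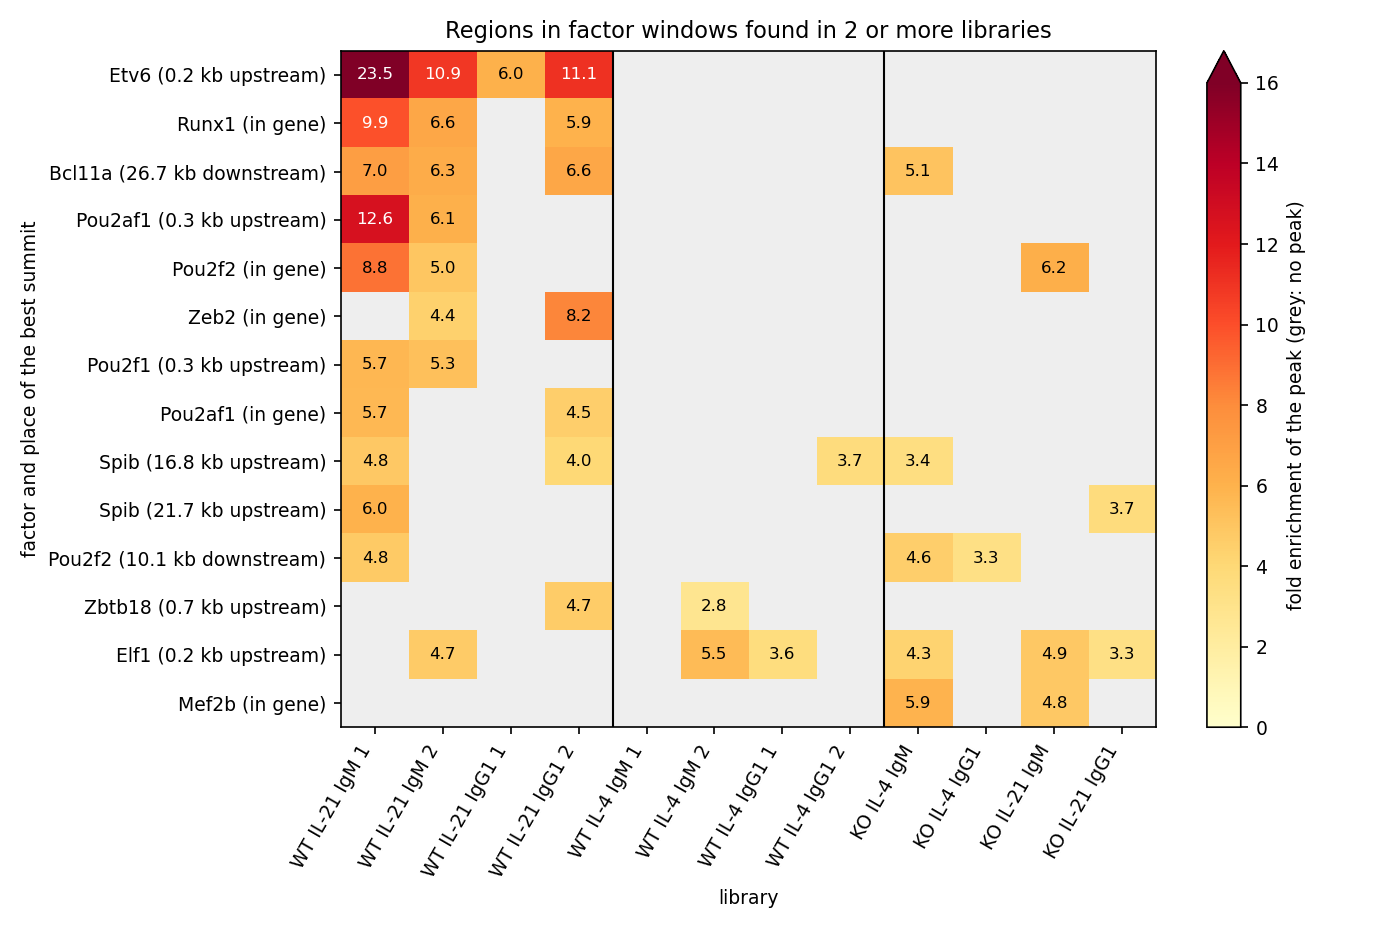
Fold enrichment (colour and number) of the peak in each library (columns: WT with IL-21, WT with IL-4, KO) for the 14 regions in the factor windows that had a peak in at least 2 of 12 libraries; rows give the factor and where the summit with the highest fold lay relative to its gene. Etv6 is the only row filled in all 4 WT IL-21 columns, and Mef2b the only row with KO peaks alone.

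Which factors had sites that recurred with IL-21 was asked first. A region was called recurring when at least 2 of the 4 libraries of a set had a peak in it. In the windows 9 regions at 8 factors recurred in WT cells with IL-21, out of 39 regions with any WT IL-21 peak (23.1%, against 16.1% of such regions over the series). The 8 factors were Etv6, Runx1, Bcl11a, Pou2af1 (with 2 regions), Pou2f1, Pou2f2, Zeb2 and Spib. Over all coding genes 7.74% had such a region in a window built in the same way, though the factor windows were longer (median 190 kb against 117 kb). Of the 9 regions 8 had no peak in a WT IL-4 library (78.5% over the series) and 6 had none in a KO library (82% over the series).

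The libraries contributed unequally. Of the 9 regions, 8 were present in the first WT IgM library with IL-21, and the second had 7, the second WT IgG1 library 6 and the first WT IgG1 library 1. Over all 693 recurring regions these libraries had 92.6%, 63.9%, 80.1% and 39.8%. Without the first WT IgM library 4 regions recurred (Bcl11a, Etv6, Runx1 and Zeb2), without the second 5 (Bcl11a, Etv6, Pou2af1, Runx1 and Spib), and without the second WT IgG1 library 6. With the 623 peaks of highest −log10 p from every list 5 recurred, at Bcl11a, Etv6, Pou2af1, Pou2f2 and Runx1.

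Etv6, an ETS-family repressor, had the strongest site of any factor. Its region (chromosome 6, 134034962 to 134035744) reached from upstream of the listed start to 44 bp past it. The fold enrichment is the authors' ratio of signal at the summit to the background of the peak call, whose control is not given. It was 23.5 and 10.9 in the WT IgM libraries with IL-21 and 6.02 and 11.1 in the WT IgG1 libraries (12.9 ± 7.47, SD, n = 4). None of the 4 WT IL-4 and 4 KO libraries had a peak there, so those libraries gave no fold to compare. The summit pileups behind the IL-21 folds, recovered from the fold and p of each peak, were 88, 53, 26 and 49 fragments over a background of 2.78 to 3.98. In that recovery a constant was added to both pileup and background, so a fold is not their plain ratio. By fold the peak ranked 21 of 2034 and 50 of 1171 in the WT IgM lists, and 138 of 865 and 59 of 1485 in the WT IgG1 lists. The summits lay 241, 257, 185 and 149 bp before the start, within 108 bp of each other. A predicted coding gene, Gm46977, lay closer to the best summit than Etv6 did (147 bp against 241 bp), so by the nearest gene the region would not be counted for Etv6.

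The Etv6 region was the 1 of the 49 window regions with a WT peak that was present in every IL-21 list and absent from every IL-4 list of WT cells. Over the series 1.31% of 7461 regions met this rule, and 1.38% of coding genes had one in their window. Fisher's exact test gave p = 0.0286, the smallest that 4 against 4 libraries allow, and adjusted p = 1 (Benjamini-Hochberg over 7461 regions). Across the series 0 regions passed after adjustment, and 98 (1.31%) had an unadjusted p under 0.05. As p cannot fall below 0.0286, a region could pass over 7461 regions only if most of them met the rule. The adjusted test therefore cannot decide for a single region. The reverse, presence in every IL-4 list and in none with IL-21, was met by 0 regions of the windows and of the series. Without the first WT IgG1 library with IL-21, 3 regions would meet the rule, at Bcl11a, Etv6 and Runx1. Inside and behind Etv6, the first WT IgM library with IL-21 had 3 further peaks found in no other library, with folds of 5.31, 6.27 and 6.36.

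**Figure D2:**
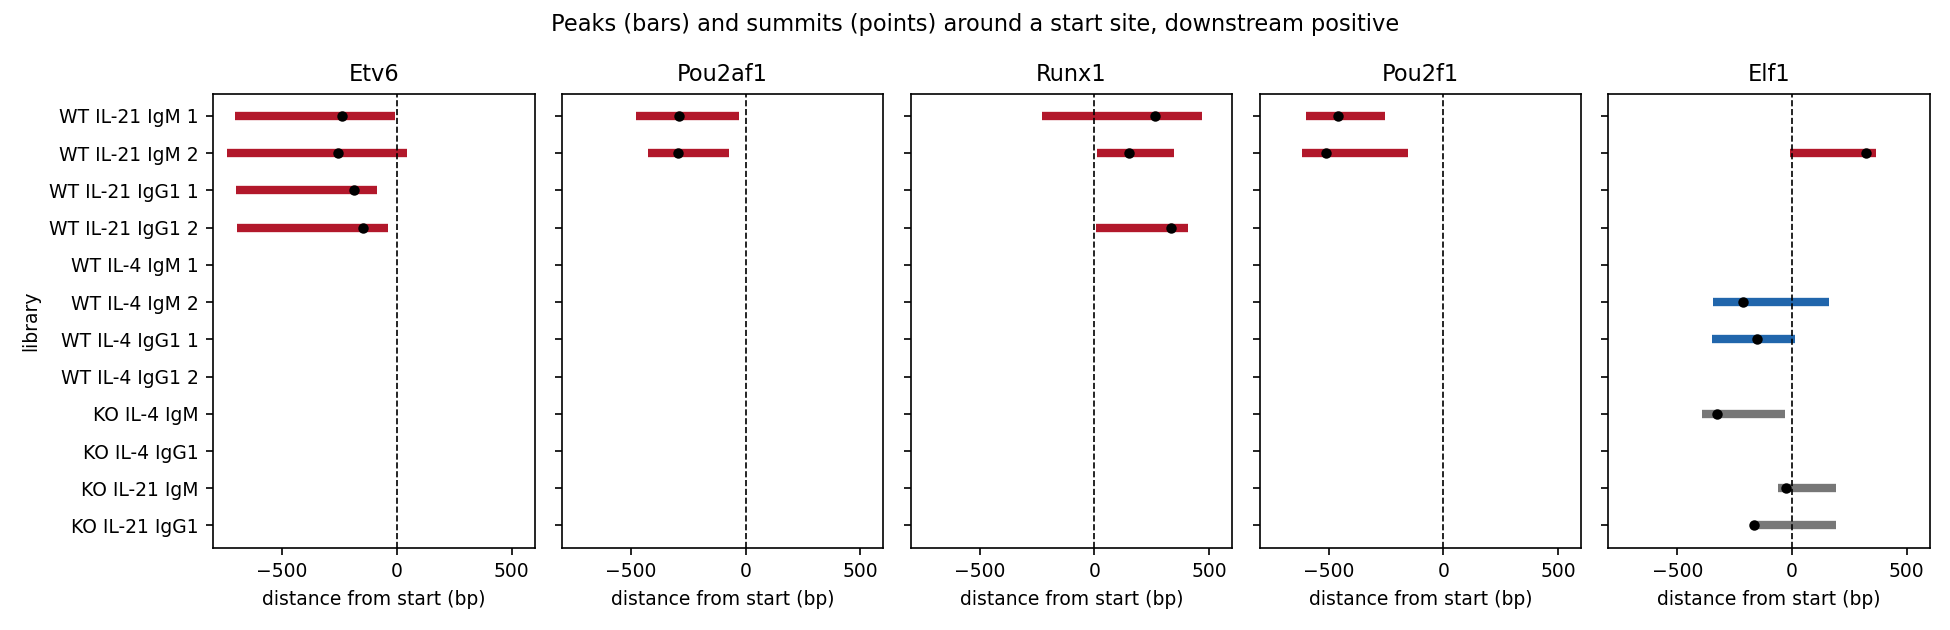
Peaks (bars) and summits (points) in each library by distance in bp from a listed start site (dashed line, downstream positive) at Etv6, Pou2af1, Runx1, Pou2f1 and Elf1; red is WT with IL-21, blue WT with IL-4, grey KO. The Etv6, Pou2af1 and Pou2f1 summits lie before the start in red libraries alone, the Runx1 summits 152 to 333 bp after it, and the Elf1 summits run from 326 bp before to 323 bp after it over red, blue and grey libraries.

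Runx1, a factor of haematopoietic and lymphoid development, had a region over its downstream start (chromosome 16, 92696861 to 92697559). The fold was 9.91 and 6.58 in the WT IgM libraries with IL-21 and 5.95 in the second WT IgG1 library (7.48 ± 2.13, SD, n = 3). The first WT IgG1 library with IL-21, the WT IL-4 libraries and the KO libraries had no peak in it. Its presence in 3 of 4 against 0 of 4 libraries could not pass, as that pattern always gives the same p (Fisher's exact test, p = 0.143, adjusted p = 1). The summits lay 265, 152 and 333 bp after the start, inside the gene. The other 4 regions in the Runx1 window were each found in 1 library, 3 of them in KO cells (folds 4.96, 5.30 and 4.37). Runx3, a relative that acts in activated lymphocytes, had a peak of fold 6.99 in the first WT IgM library with IL-21, 39901 bp before the gene, and one of 5.61 inside the gene in the first WT IgM library with IL-4.

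The octamer group encodes Oct-1 (Pou2f1), Oct-2 (Pou2f2) and their B cell coactivator OBF-1 (Pou2af1), which is needed for germinal centres. All 3 factors had a recurring region with IL-21, against 7.74% of coding genes. Of their 6 regions with a WT IL-21 peak 4 recurred, against 16.1% over the series. Without the first WT IgM library with IL-21 none of the 3 factors had a recurring region. Without the second, only Pou2af1 did. At Pou2af1 a region just before the start (chromosome 9, 51213213 to 51213663) had folds of 12.6 and 6.07 in the WT IgM libraries with IL-21 and no peak in any other library. The summits were 4 bp apart, 289 and 293 bp before the start. A second region 12373 bp into Pou2af1 (51225629 to 51226215) had folds of 5.65 in the first WT IgM and 4.54 in the second WT IgG1 library with IL-21 and no other peak. Pou2af1 thus had peaks in WT IL-21 libraries alone, as did Etv6 and Zeb2. So did Foxo1, Ikzf1, Myb, Tbx21 and Zbtb32, but only in regions of a single library. The share of all coding genes with this pattern was not counted. The lists held 865 to 2034 peaks in WT with IL-21, 623 to 1455 in WT with IL-4 and 648 to 1892 in KO.

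Pou2f1 had a region 345 bp before its gene span (chromosome 1, 166002786 to 166003249) with folds of 5.74 and 5.29 in the WT IgM libraries with IL-21 and no peak elsewhere. Its other 4 regions were each seen in 1 library, 1 with IL-21, 2 with IL-4 and 1 in KO. Pou2f2 had a region inside the gene, 2839 bp after the listed start (chromosome 7, 25129400 to 25130103), with folds of 8.83 and 4.98 in the WT IgM libraries with IL-21. The KO IgM library with IL-21 also had a peak there, with a fold of 6.18, between the WT values. This Pou2f2 site was therefore not set apart by genotype. A region 10070 bp behind Pou2f2, inside the neighbouring gene Zfp574 (25077016 to 25077578), had folds of 4.81 in the first WT IgM library with IL-21 and 4.56 and 3.28 in the KO libraries with IL-4.

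Isotypes, with 2 against 2 libraries each, were compared by counts with no test. In IgM cells 6 regions of the windows were present with IL-21 in both libraries and with IL-4 in neither (Etv6, Runx1, Bcl11a, Pou2af1, Pou2f1 and Pou2f2), of 37 regions with a WT IgM peak, against 6.64% over the series and a window with one at 3.9% of coding genes. In IgG1 cells 1 region did, at Etv6, of 20 regions with a WT IgG1 peak, against 5.54% over the series and a window with one at 2.5% of coding genes. The IL-21 lists held 865 and 1485 peaks in WT IgG1 cells and 2034 and 1171 in WT IgM cells. The rule needs a peak in both libraries, and the shortest of these lists came from IgG1 cells. The part of list length in this difference was not tested. No region of the windows had a peak in both IL-4 libraries and neither IL-21 library of an isotype, a rule met by 0.206% of regions in IgM and 0.0306% in IgG1 cells.

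Among the 10 factors of B cell identity, 2 had a recurring region with IL-21, where 7.74% of coding genes had one. Of their 15 regions with a WT IL-21 peak 2 recurred, against 16.1% over the series. Neither count was tested. Bcl11a, required for early B cell development, had a region 26735 bp behind the gene (chromosome 11, 24200222 to 24200636). Its folds were 7.0 and 6.28 in the WT IgM and 6.57 in the second WT IgG1 library with IL-21 (6.62 ± 0.364, SD, n = 3), and no WT IL-4 library had a peak (Fisher's exact test, p = 0.143, adjusted p = 1). A peak of fold 5.08 was also present in KO IgM cells with IL-4, so the site was shared with a KO library. Its pileup was 15 fragments against 19 to 22 in the WT libraries.

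Spib, an ETS factor of B cells, had 6 regions in its window of 106 kb, the most per length of any factor (56.6 per Mb). The window holds 6 other coding genes, and all 6 regions lay nearest to one of them (Mybpc2, Pold1, Nr1h2 or Napsa). The recurring region, 43 bp from Pold1 (chromosome 7, 44548763 to 44549214), had folds of 4.81 and 3.97 with IL-21 (first WT IgM, second WT IgG1), 3.68 with IL-4 (second WT IgG1) and 3.44 in KO IgM cells with IL-4. The IL-4 fold and the KO fold were each a single value, both below the IL-21 folds, and were not tested. A region inside Nr1h2 had 5.95 in the first WT IgM library with IL-21 and 3.66 in the KO IgG1 library with IL-21. Spi1, which encodes the related PU.1, had 3 regions, all nearest to Slc39a13 or Mybpc3 and each in 1 library.

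The other identity factors had only regions of a single library. Pax5, the keeper of B cell identity, had WT IL-21 peaks of fold 7.42 (first WT IgM library, 211 bp before the start) and 4.13 (first WT IgG1 library, 833 bp before it). These 2 peaks (chromosome 4, 44710786 to 44711337 and 44711465 to 44711684) were separated by 127 bp and so were not 1 region. A KO peak of fold 3.86 lay inside Pax5, in the KO IgM library with IL-21. The Ikaros family gene Ikzf3 had 2 peaks inside the gene with IL-21 (5.47 and 3.87, a different place in each WT IgM library) and 1 KO peak nearest to Mien1 (4.34, IgM with IL-4), and Ikzf1 had 1 (4.57, 15870 bp behind the gene and nearer to Fignl1). Foxo1, which shapes the germinal centre dark zone, had 2 with IL-21 (6.30 inside the gene and 4.77 behind it). Foxp1, a repressor of plasma cell formation, had 4 regions inside its gene of 597 kb: 1 with IL-21 (4.45), 2 with IL-4 (3.63 and 3.97) and 1 in KO (3.97).

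Bach2, which represses Prdm1, and Ebf1, which specifies the B lineage, had no peak in any WT IL-21 library although their windows are long (448 and 490 kb). Bach2 had folds of 6.62 and 4.29 in separate WT IL-4 libraries at places 1101 bp apart, and 4.06 in a KO library. Ebf1 had folds of 4.41 and 4.19 in WT IL-4 libraries and 4.50 and 4.06 in KO libraries, each at a place of its own. Each of these peaks rested on 11 to 17 fragments.

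**Figure D3:**
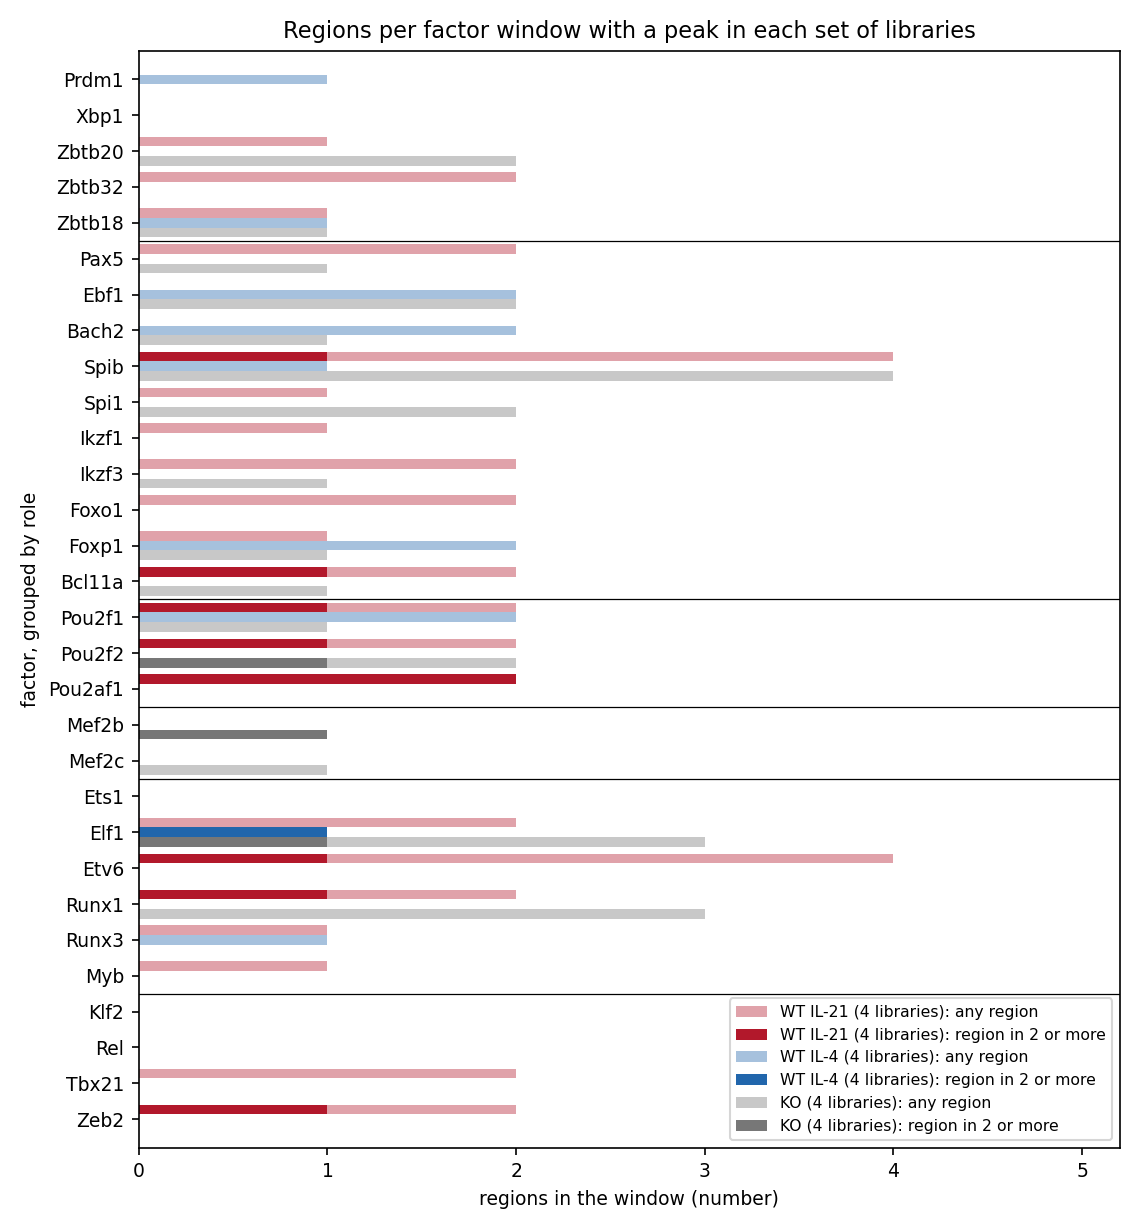
Number of regions in each factor window (x axis) with a peak in WT IL-21 (red), WT IL-4 (blue) and KO libraries (grey), 4 libraries each; solid bars count regions with a peak in at least 2 libraries of the set and black lines part the role groups. Solid red stands at 8 factors, solid blue at Elf1 alone, and no bar at Xbp1, Ets1, Klf2 and Rel.

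Of the 5 plasma cell and BTB zinc finger factors, Prdm1 and Xbp1 had almost no peaks after 1 h, whereas Zbtb20, Zbtb32 and Zbtb18 had 3, 2 and 2 regions. Prdm1, which encodes the repressor Blimp-1 that drives plasma cell differentiation, had no peak in the 4 IL-21 lists of WT cells or the 4 KO lists within its window of 191 kb. Its only region lay inside the gene, 5471 bp after the listed start (chromosome 10, 44453098 to 44453324), with a fold of 4.73 and a pileup of 14 fragments in the first WT IgG1 library with IL-4. Xbp1, which builds the secretory apparatus of plasma cells, had no peak in any of the 12 libraries (window 105 kb). Zbtb20, which supports long-lived plasma cells, had 1 peak with IL-21 (4.65, 1 bp outside the gene span) and 2 in the KO IgG1 library with IL-4 (3.64 and 5.00) in the longest window of all, 859 kb. Zbtb32, a related repressor that limits recall responses, had 2 peaks with IL-21 (4.38 and 6.00), nearest to Proser3 and Rbm42. The zinc finger repressor gene Zbtb18 had a region 695 bp before its start (chromosome 1, 177441545 to 177442032) with 4.67 in the second WT IgG1 library with IL-21 and 2.78 in the second WT IgM library with IL-4, at summits 354 bp apart. These 5 windows held 0 regions that recurred with IL-21, IL-4 or in KO, where 7.74%, 0.987% and 1.68% of coding genes have one, so a count of 0 among 5 does not set them apart.

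Altogether 4 factors had no peak in any library: Xbp1, Klf2, which governs lymphocyte homing, Rel, the NF-kB subunit c-Rel downstream of CD40, and Ets1, which restrains plasma cell formation. A further 5 had peaks in WT IL-4 or KO libraries but none in a WT IL-21 library: Prdm1, Bach2, Ebf1, Mef2b and Mef2c. Over all coding genes 31.3% had a region with a WT IL-21 peak in their window and 56.1% had any region, against 21 and 26 of the 30 factors. The smallest pileup called in the lists was 10 to 12 fragments and the lowest −log10 p was 5.00, so weaker binding would not appear. The read depth is not given with the lists. No peak therefore means no call at this depth and cutoff, and not that STAT3 was absent.

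With IL-4, 1 of 13 regions with a WT IL-4 peak recurred, against 2.61% of such regions over the series and a window with one at 0.987% of coding genes. It lay over the start of Elf1, an ETS factor of lymphocytes, and inside the neighbouring gene Wbp4 (chromosome 14, 79480803 to 79481560). The fold was 5.50 in the second WT IgM and 3.6 in the first WT IgG1 library with IL-4, and 4.69 in the second WT IgM library with IL-21. In KO cells it was 4.30 (IgM, IL-4), 4.86 (IgM, IL-21) and 3.29 (IgG1, IL-21). The values overlapped between the cytokines and between WT and KO cells, and the summits were spread over 649 bp. No region recurs with IL-4 once either of these 2 IL-4 libraries is left out.

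In KO cells 3 of 27 regions with a KO peak recurred, against 3.71% over the series and a window with one at 1.68% of coding genes. These were the Elf1 region (3 KO libraries), the Zfp574 region behind Pou2f2 (both KO libraries with IL-4) and a region inside Mef2b. Mef2b, a MADS-box factor of germinal centre B cells, had folds of 5.88 and 4.82 in the KO IgM libraries with IL-4 and IL-21 (chromosome 8, 70158467 to 70158790) and no peak in the 8 WT libraries. Both KO peaks had the same start and end, with summits 45 bp apart and pileups of 28 and 19 fragments. Its relative Mef2c had 1 KO peak inside the gene (5.47, IgM with IL-4) and none in WT. Without the KO IgM library with IL-4 only the Elf1 region recurred.

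Activation and migration factors gave 4 regions, 2 at Zeb2 and 2 at Tbx21, each with WT IL-21 peaks alone, and none at Klf2 and Rel. Zeb2, a factor of atypical memory B cells, had a region inside the gene (chromosome 2, 45018924 to 45019461) with folds of 4.43 in the second WT IgM and 8.22 in the second WT IgG1 library with IL-21 and no other peak. The 2 summits were 12 bp apart. A second Zeb2 region, 30560 bp behind the gene and nearer to Gtdc1, had a fold of 4.77 in the first WT IgG1 library with IL-21. Tbx21, which encodes T-bet, had a peak of 3.6 at 100 bp after its start in the second WT IgM library and one of 6.71 at 11866 bp before it, nearer to Tbkbp1, in the first. Myb, which guides plasma cell migration and was grouped with the ETS and RUNX factors, had 1 peak of 4.43 with IL-21, nearest to Ahi1.

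Per library, the windows held 6 to 23 peaks with IL-21 (median 11.5), 3 to 5 in WT with IL-4 (median 3) and 6 to 9 in KO (median 8). All WT IL-21 libraries were thus above all WT IL-4 libraries, and the KO libraries were also above the IL-4 libraries and overlapped the IL-21 range. The lists themselves held 865 to 2034 peaks with IL-21, 623 to 1455 with IL-4 and 648 to 1892 in KO. As a share of its own list the windows held 0.673% to 1.13% with IL-21, 0.344% to 0.482% with IL-4 and 0.476% to 1.05% in KO. Peaks per Mb in the factor windows were 1.83 to 3.09 times those over the windows of all coding genes with IL-21, 1.01 to 1.68 times with IL-4, and 1.48 to 2.93 times in KO. A higher density near these factors was thus also seen in KO libraries, which lack the target of the antibody by their label.

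**Figure D4:**
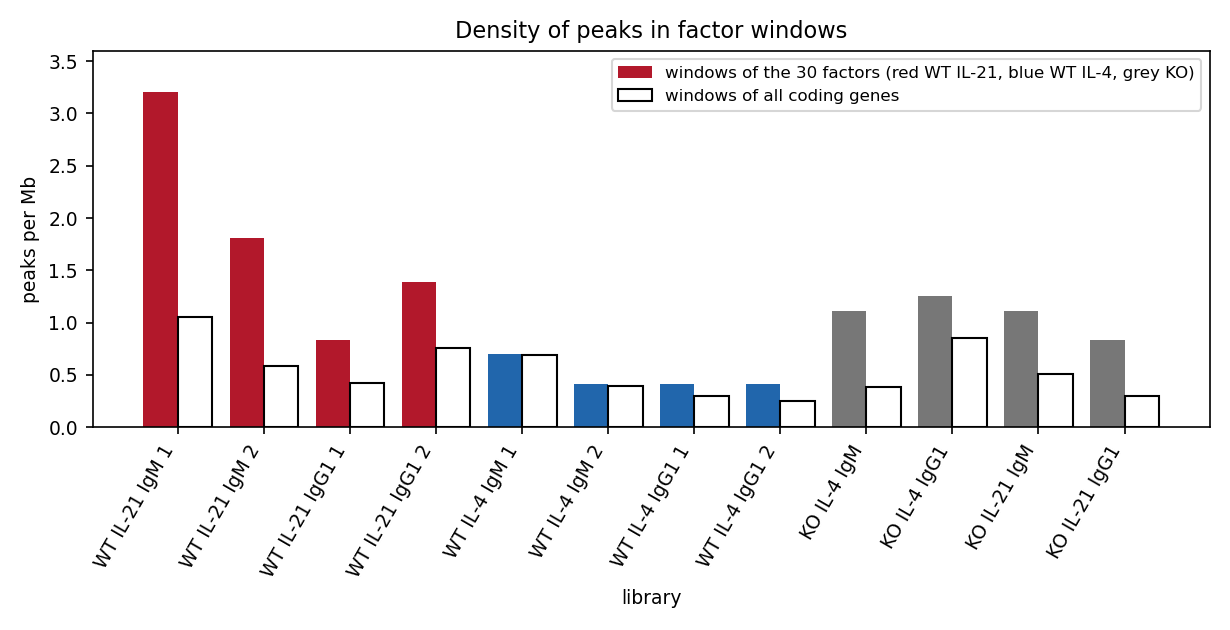
Peaks per Mb (bars from 0) in each library within the windows of the 30 factors (filled: red WT IL-21, blue WT IL-4, grey KO) and within the merged windows of all coding genes (open). The first WT IgM library with IL-21 is highest at 3.20 per Mb, and the filled bars of KO libraries (0.835 to 1.25) exceed those of WT IL-4 libraries (0.418 to 0.696).

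Most regions were seen once. Of the 70 regions 56 (80%, against 90.7% over the series) came from a single library: 26 from WT with IL-21, of which 13 from the first WT IgM library, 10 from WT with IL-4 and 20 from KO. Their folds ran from 3.6 to 7.42 (median 4.69) on pileups of 10 to 21 fragments. Peaks in the 14 regions of at least 2 libraries had folds of 2.78 to 23.5 (median 5.29) and pileups of 11 to 88. The ranges overlap, and folds above 7.42 were found at 5 factors: Etv6, Pou2af1, Runx1, Pou2f2 and Zeb2. Of the 14 regions 8 had their best summit within 1000 bp of a listed start of any gene, against 9 of the 56 of a single library. Over the series these shares were 47.1% and 12.4%, so nearness of shared regions to starts was not particular to these factors.

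By summit, 32 regions lay inside the gene of their factor and 47 were nearest to it, whereas 23 were nearest to another coding gene. The 50 kb limit left out strong neighbours. The closest region outside that all 4 IL-21 lists of WT cells held lay 7549 bp beyond the Pou2f2 window, nearest to Gsk3a, with a fold of 20.3 ± 3.89 (SD, n = 4). The closest regions on either side of a limit were a WT IL-21 peak of fold 6.00 at 2505 bp inside the Zbtb32 window and a KO peak of fold 5.10 at 1626 bp outside the Foxo1 window.

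Other regulators of the same fates were counted in the same windows. Of 15 (Irf4, Irf8, Bcl6, Batf, Id2, Id3, Tcf3, Tcf4, Stat3, Stat6, Myc, Nfkb1, Relb, Hhex and Bhlhe41), 8 had a region recurring with IL-21: Batf, Bcl6, Bhlhe41, Id2, Id3, Irf8, Stat3 and Tcf4. At Bcl6, Id3 and Irf8 a region was present in every IL-21 list and absent from every IL-4 list of WT cells, as at Etv6. Irf4, which acts with Prdm1 in plasma cell formation, had 1 region with a WT IL-21 peak and none that recurred. Of 15 genes that these factors control in B and plasma cells, 2 (Blnk and Cd22, both of B cell receptor signalling) had a recurring region, and Sdc1, Jchain and Tnfrsf17, genes of plasma cells, had none of any kind. Of 12 fate factors of other lineages 3 (Cebpb, Eomes and Foxp3) had any region and 0 had a WT IL-21 peak. Over all coding genes the share was 7.74% for a region recurring with IL-21, 31.3% for one with a WT IL-21 peak and 56.1% for any region, and these counts of few genes are descriptions.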

How the data were processed

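CUT&RUN with an anti-STAT3 antibody was analysed in 12 of 13 samples; the input was not analysed here. MACS2 2.2.7.1, Bowtie2 2.4.1, deepTools 3.5.1, Trimmomatic 0.39 and build mm10 are listed, without roles, in the submitters' processing notes. The sources used here do not give filters, the peak-calling control or any spike-in scaling. Folds are the authors' own values against the background of each peak call, and are set side by side only as a description. The authors deposited 1 peak list per library, in which every peak has a summit, a score, a fold ratio over local background and its p and q as −log10 values (for 99.9% of peaks the score was 10 times the −log10 p, cut to a whole number). Peaks on unplaced or mitochondrial sequence (395 of 13908) were left out. Peaks overlapping by at least 1 bp were merged, and the highest fold per library was kept. Pileups were solved from fold and p as a whole number (within 0.001 for 97.5% to 99.9% of peaks with a −log10 p under 30). Spans and promoters came from RefSeq on GRCm38.p6, and positions are 1-based. Fisher's exact tests (scipy 1.17.1, Python 3.11.15) were adjusted over all 7461 WT regions. Merging was tested on simulated lists. The described regions were those in every WT list with IL-21, gained within an isotype, present in at least 3 WT libraries, or in at least 2 WT IL-4 or KO libraries; the second Pou2af1 region, Zeb2, the second Spib region, Zbtb18 and regions of a single library were named after their values were seen. The factors and lists were chosen with earlier results of these data known.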

Additional observations from a re-analysis of the deposited data

Results flagged for a closer look

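The first WT IgM library with IL-4 had 5 peaks in the factor windows, at 4 factors, against 3 peaks at 3 factors in each of the other 3 WT IL-4 libraries. These are small counts of the same peaks, and with 3 tied values any gap picks out the remaining library, so the chance rate of about 1 in 20 sets does not apply to them. The list of that library was also the longest of the 4 (1455 peaks against 623 to 853). The highest fold in a factor window was 6.62 in the second WT IgG1 library with IL-4, at Bach2, against 5.50 to 5.66 in the other 3, the 1 remaining set of 13 checked in which a library lay far from the others.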

How the results depend on the processing

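Results were recomputed under 20 alternatives, of which the replicate block changed the test and no count. Each library was left out only for the counts that use its genotype. With 100 kb on each side of the genes, the regions of all 4 WT IL-21 and no WT IL-4 library rose from 1 to 3, recurring IL-21 regions from 9 to 16, recurring IL-4 regions from 1 to 3 and recurring KO regions from 3 to 6. With a −log10 q of at least 5, recurring IL-4 regions fell to 0 and recurring KO regions to 1. With lists of equal length, 5 regions at 5 factors recurred with IL-21. Counting only regions nearest to the factor itself, an alternative chosen after seeing the data, left 0 regions of all 4 WT IL-21 and no WT IL-4 library, 0 recurring IL-4 regions and 1 recurring KO region. Leaving out single libraries gave 4 to 9 recurring IL-21 regions at 4 to 8 factors, 1 to 3 regions of all WT IL-21 and no WT IL-4 libraries, 0 to 1 recurring IL-4 regions and 1 to 3 recurring KO regions. The Etv6 region was among the recurring ones in each of these except when only regions nearest to the factor were counted. With the replicate number as a block, an exact sign test over 4 pairs of libraries, the smallest p in the windows was 0.125 (adjusted p = 1). That is the lowest p that 4 pairs allow, so this test could not pass and decides nothing for any region. Deviations of same-numbered libraries correlated at −0.0141 in IgM and 0.00635 in IgG1 cells. Because 90.7% of regions in the series came from a single library, these values cannot tell whether same-numbered libraries shared a batch or an animal. The mean fold of 9.35 at the Pou2af1 start rested on 2 libraries, and was 6.07 without the first and 12.6 without the second WT IgM library with IL-21. Called peaks had pileups of at least 10 fragments and a −log10 p of at least 5.00. The parts of read depth and of the calling cutoff in this floor were not tested.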

Other observations

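Beyond the 50 kb limit, 7 further regions recurred with IL-21 within 100 kb of a factor gene, and none lay nearest to the factor. The strongest, at Gsk3a, is given above. Behind Etv6, 2 regions nearest to Bcl2l14, a gene of the Bcl2 family (chromosome 6, 134342710 to 134343245 and 134366239 to 134367510), were each present in 3 IL-21 lists of WT cells and absent from all IL-4 and KO lists, with folds of 5.09 ± 1.02 and 7.07 ± 1.54 (SD, n = 3). Near Pou2f2, a region nearest to Cic, a transcriptional repressor (chromosome 7, 25267596 to 25268337), was held by all 4 IL-21 lists at 5.50 ± 1.54 (fold, SD, n = 4) and by no IL-4 or KO list. Near Tbx21, a region nearest to Kpnb1, a nuclear import receptor (chromosome 11, 97187964 to 97188562), had a peak in all 8 WT libraries and in 2 KO libraries, and its IL-21 folds averaged 4.97 ± 0.937 (SD, n = 4). Near Zeb2, a region nearest to Gtdc1 was present in 3 lists with IL-21, 1 with IL-4 and 2 from KO cells. A region nearest to Clic4, beyond Runx3, was present in 2 lists with IL-21, 3 with IL-4 and 3 from KO cells.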
